A study of Mus musculus with 18 samples.

Results

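A set of 10 genes of mast cells and basophils was followed by nascent RNA across erythroid differentiation in mouse fetal liver: Cpa3, Mcpt8, Prss34, Cma1, Gzmb, Ms4a2, Fcer1a, Srgn, Hdc and Mitf. They were chosen by name, as the 10 rows with these symbols among the 54232 genes of the count table, by a rule that used no measured value, although earlier results of these data were known when the set was chosen. The 18 libraries came from sorted cells of C57BL/6 embryos at e12.5-e13.5, with 3 replicates in each of 6 populations. Lineage-negative cells were divided by the transferrin receptor CD71 and the erythroid surface antigen Ter119 into S0-Low (CD71- Ter119-, holding haematopoietic stem and progenitor cells and the earliest committed erythroid progenitors), S0-Medium (CD71 medium Ter119-), S1 (CD71 high Ter119-), S2 (CD71 high Ter119 medium) and S3 (CD71 high Ter119 high). The sixth population, Lin+, carried at least 1 antigen of a lineage antibody panel against CD41, CD45R, CD3e, CD11b and Ly-6G/6C, a panel in which no antibody to the IgE receptor was named. The study describes 1 preparation and names no difference between the populations. Progenitors were enriched by depleting Ter119-bearing cells, and the sorted cells rested for 6 h in erythroid medium. New RNA was then labelled with 500 µM 4-thiouridine (4sU) for 45 min and purified. Values therefore describe RNA made during that pulse in culture rather than the standing RNA pool.

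Mast cells and basophils are granulocytes that arm themselves with IgE. Antigen bound to IgE crosslinks the high-affinity receptor FcεRI, which triggers release of granules in which proteases and histamine are packed onto serglycin, a proteoglycan. Both lineages descend from GATA2-expressing progenitors that stand close to the erythroid and megakaryocytic branches. Carboxypeptidase A3 is made early in this lineage and by both cell types, Mcpt8 and Prss34 mark mouse basophils, and chymases and tryptases such as Cma1, Mcpt4 and Tpsb2 mark tissue mast cells.

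Total counts ranged from 9452476 in S0-Low replicate 3 to 40567976, with a median of 33174876. Levels are given as CPM (the count scaled to a common library size), normalised by the TMM method over the 18 libraries. The study describes the replicates as biological, but neither it nor the labels say what separated them (litters, days or sorts), so p-values measure the spread between these libraries. In bulk libraries, fewer cells of a type and less RNA per cell cannot be told apart. The submitters labelled all 6 populations as erythroblasts. Summed nascent RNA of 6 erythroid markers (such as Slc4a1, the band 3 anion exchanger) was 22356 to 38201 CPM in S3 and 410 to 827 CPM in S0-Low, but only 209 to 261 CPM in Lin+. The label is therefore not carried by the markers in Lin+, where 9 neutrophil markers summed to 3396 to 6040 CPM.

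The DNA just upstream of annotated start sites is shown because GATA factors are central to this lineage and because the levels of the members differed between populations. Sequences of 250 bases before the start site were taken from RefSeq (GRCm38.p6) and are written 5′ to 3′ on the gene's strand. The start is the one RefSeq's promoter entry uses. For Cpa3 and Ms4a2 the annotated gene reaches into part of the sequence. For Mcpt8 and Hdc the whole sequence lies inside the annotated gene, which extends to 56085499 and 126624025, so neither is DNA upstream of the gene. Capitals mark AGATAA or TGATAA on either strand, the core bound by GATA factors. Cpa3 (chr3:20242182-20242431, minus strand), Ms4a2 (chr19:11623720-11623969, minus strand) and Prss34 (chr17:25298144-25298393, plus strand) held such a core, whereas Mcpt8 (chr14:56085198-56085447, minus strand) and Hdc (chr2:126618679-126618928, minus strand) held none.
Cpa3: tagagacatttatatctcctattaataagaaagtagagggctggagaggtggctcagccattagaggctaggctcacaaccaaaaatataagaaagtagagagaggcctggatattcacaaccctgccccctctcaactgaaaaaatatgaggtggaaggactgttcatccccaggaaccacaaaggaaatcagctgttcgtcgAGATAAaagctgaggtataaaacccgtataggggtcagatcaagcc
Ms4a2: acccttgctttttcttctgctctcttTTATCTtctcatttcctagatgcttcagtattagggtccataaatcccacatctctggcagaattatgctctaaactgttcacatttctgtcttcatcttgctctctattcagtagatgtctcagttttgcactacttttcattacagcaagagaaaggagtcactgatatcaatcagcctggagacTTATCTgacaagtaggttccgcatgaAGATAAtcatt
Prss34: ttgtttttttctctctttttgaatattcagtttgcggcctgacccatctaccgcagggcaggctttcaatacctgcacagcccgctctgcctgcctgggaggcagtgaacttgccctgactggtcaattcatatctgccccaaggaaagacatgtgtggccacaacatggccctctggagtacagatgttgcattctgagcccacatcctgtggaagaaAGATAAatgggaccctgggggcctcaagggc
Mcpt8: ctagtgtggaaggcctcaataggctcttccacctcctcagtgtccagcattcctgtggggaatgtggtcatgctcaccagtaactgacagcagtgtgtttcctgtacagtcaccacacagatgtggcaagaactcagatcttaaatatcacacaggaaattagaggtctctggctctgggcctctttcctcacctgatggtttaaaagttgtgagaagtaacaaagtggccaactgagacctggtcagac
Hdc: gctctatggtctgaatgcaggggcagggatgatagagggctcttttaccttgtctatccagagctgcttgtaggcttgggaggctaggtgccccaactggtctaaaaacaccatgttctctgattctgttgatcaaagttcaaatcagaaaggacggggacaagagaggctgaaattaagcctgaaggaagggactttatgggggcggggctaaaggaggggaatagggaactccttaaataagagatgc

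All 10 genes had a RefSeq promoter, giving 13 promoters, since Mitf has 3 and Srgn 2. Either GATA core occurred in 6 of the 13, against 16.6% of 32851 promoters of the same length. In Cpa3 the core lay 46 bases before the start, in Prss34 31 bases, in Fcer1a 92 bases, and in Ms4a2 at 224, 37 and 11 bases. Mitf held TGATAA in the promoters numbered 2 and 3, at 36 and 13 bases. The letters TGTGGT, the core for RUNX factors, occurred on either strand in 6 of the 13 promoters, against 14.0% of all, including those of Cpa3, Mcpt8, Fcer1a and Gzmb. The E-box CACGTG, which MITF can bind, was in 0 of the 13 and 6.02% of all, and CATGTG was in 2 of 13 (Fcer1a and Prss34) and 12.3% of all. The PU.1 core GAGGAA was in 2 (23.3% of all) and the C/EBP pattern TTNNGCAA in 2 (9.56% of all). These are letter matches and not measured binding.

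Cpa3, the carboxypeptidase of mast cell and basophil granules (chromosome 3, 20215616 to 20242209, GRCm38.p6), was lower from S0-Low to S0-Medium and S1, and at 0 counts thereafter. In S0-Low its level was 23.0, 28.5 and 21.5 CPM in replicates 1, 2 and 3, a mean of 24.3 ± 3.68 CPM (SD, n = 3). In S0-Medium it was 2.69, 0.723 and 1.91 CPM, and in S1 0.0763, 0.104 and 0.0668 CPM, from 2 to 4 counts per library. No count was found in any S2 or S3 library. S0-Low, S0-Medium and S1 did not overlap, and the S0-Low replicates lay close together. S1, at 2 to 4 counts, lay at the limit of 3 counts used here, so its distance from S2 is not resolved.

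Cpa3 was the only member that passed the test in S1 against S0-Low. Its mean was 295-fold lower in S1, and the log2 fold change was -8.14 ± 1.16 (SE), with an adjusted p of 0.00593 by edgeR's quasi-likelihood test over 16555 genes. Over all genes tested, 1.95% passed as lower in this comparison, and 1 of the 6 members tested did so. S1 counts were at or near 3, so the fold rests on a handful of reads. The 2 intermediate steps did not pass: S0-Medium against S0-Low gave -3.78 ± 0.94, with a raw p of 0.00181 and an adjusted p of 1 by edgeR, and S1 against S0-Medium gave -4.36 ± 0.99 with an adjusted p of 0.212. DESeq2 called both steps (adjusted p = 3.36e-07 and 1.56e-06), and a fit over all 18 libraries called the second (adjusted p = 0.0154).

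In S3 Cpa3 was at least 137-fold lower than in S0-Low, taking 3 counts per library as the limit for S3 (adjusted p = 0.000126 by edgeR). In Lin+ the level of Cpa3 was 46.8, 103 and 64.0 CPM. Each Lin+ library was above each S0-Low library, but the difference of 1.55 ± 0.58 in log2 did not pass (adjusted p = 0.336 by edgeR). Among the 6 populations, S0-Low thus came next after Lin+ in mean Cpa3.

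**Figure D1:**
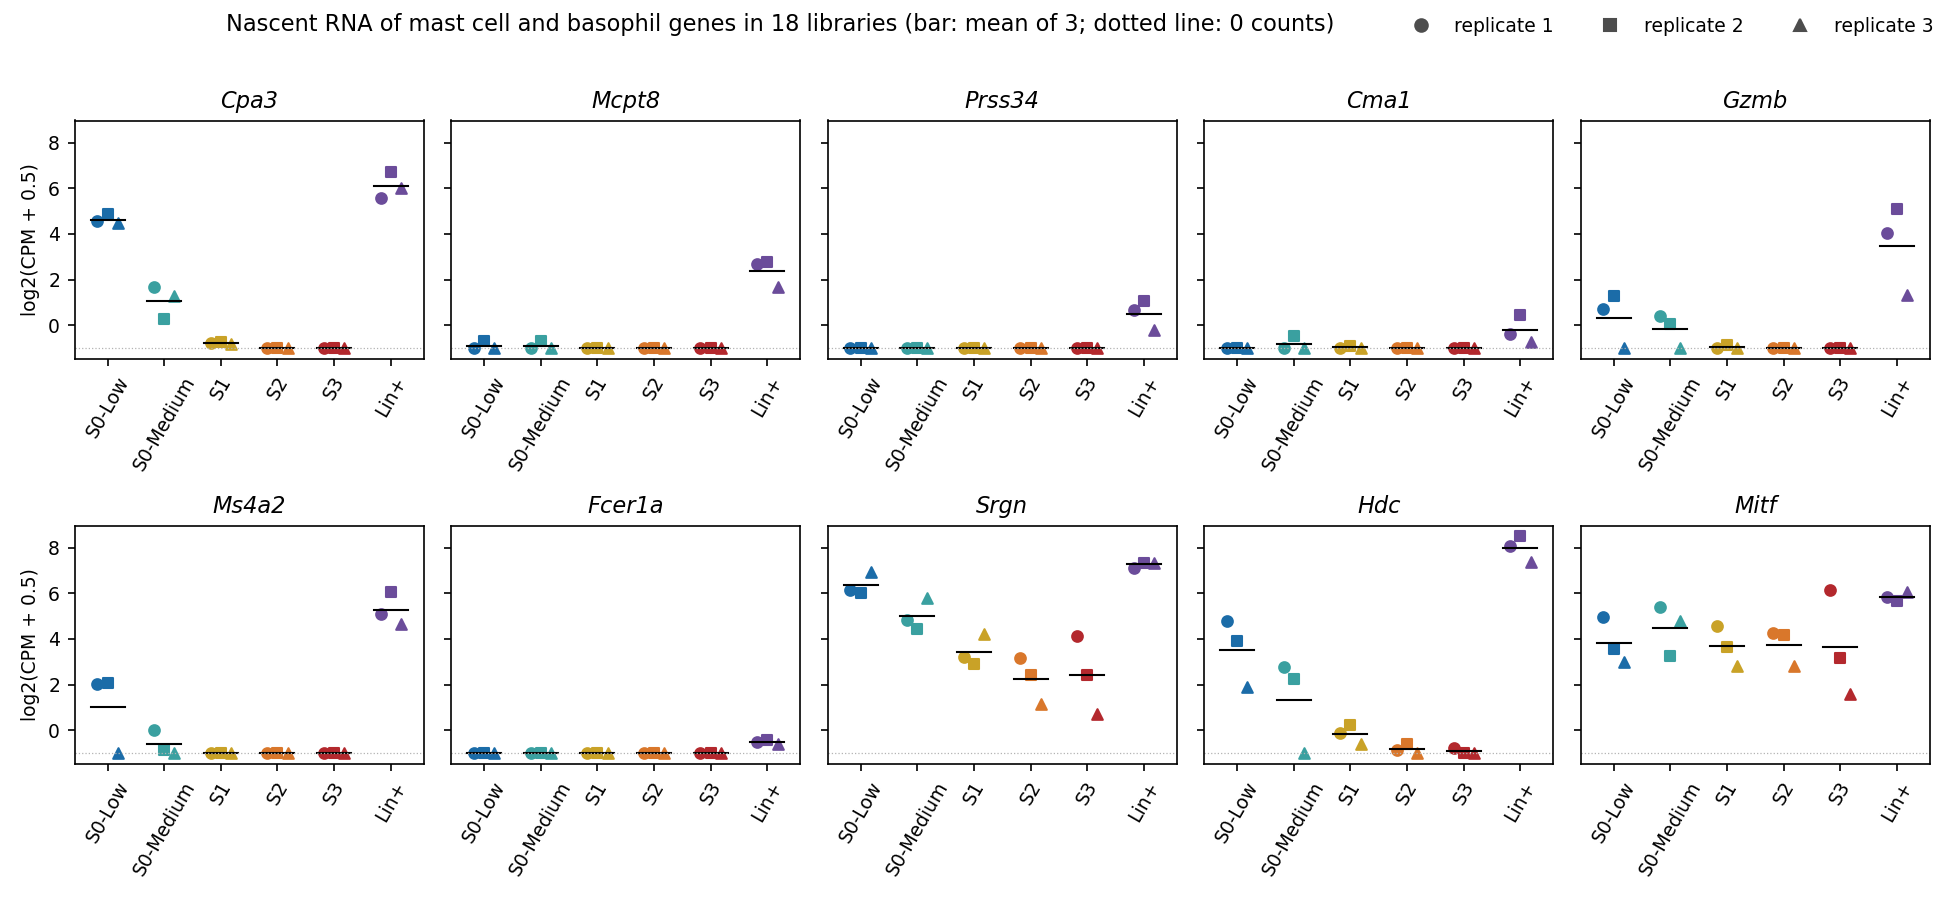
Nascent RNA of the 10 genes in each library, as log2(CPM + 0.5), by population on the horizontal axis, with a symbol shape for each replicate number and a bar for the mean of 3. Cpa3 descends from 23.0, 28.5 and 21.5 CPM in S0-Low to 0 in S2 and S3, and Srgn and Mitf keep counts in every library. Mcpt8, Prss34, Cma1, Fcer1a, Ms4a2 and Gzmb reach a count in every replicate only in Lin+.

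Hdc, histidine decarboxylase, which makes histamine (chromosome 2, 126593659 to 126624025), followed the same order of populations with far more spread. S0-Low held 26.9, 14.5 and 3.24 CPM, S0-Medium 6.30, 4.27 and 0 CPM, and S1 0.407, 0.678 and 0.167 CPM. S2 held 6 counts at most and S3 1 count in 1 library. Replicate 3 was the lowest in both S0-Low and S0-Medium, and the ranges of these populations overlapped.

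Lin+ held the highest Hdc levels of the series, 271, 359 and 166 CPM (mean 265 ± 96.6 CPM), which was 17.8-fold above the S0-Low mean of 14.9 ± 11.8 CPM. The log2 fold change was 4.15 ± 1.12, with a raw p of 0.00166 and an adjusted p of 0.109 by edgeR over 17755 genes. The same-numbered libraries of Lin+ and S0-Low deviated together, and with the replicate number as a block the difference was 4.71 and passed (adjusted p = 0.00786 by edgeR). DESeq2 also called it (adjusted p = 0.0234). In S1 the difference of Hdc from S0-Low (-5.15 ± 1.75) had an adjusted p of 0.136 by edgeR, and in S3 it passed at 0.00529.

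The count ratio of Hdc to Cpa3 was 1.17, 0.509 and 0.151 in S0-Low replicates 1, 2 and 3 and 5.78, 3.48 and 2.59 in Lin+. Every Lin+ library lay above every S0-Low library, by 3.06 in mean log2 ratio, with a two-sided exact permutation p of 0.1, the smallest that 3 against 3 libraries can give. S0-Medium gave ratios of 2.34, 5.90 and 0, which span both. The ratio was chosen after the values had been seen, so it is a description, and a difference between populations is not shown by it.

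**Figure D2:**
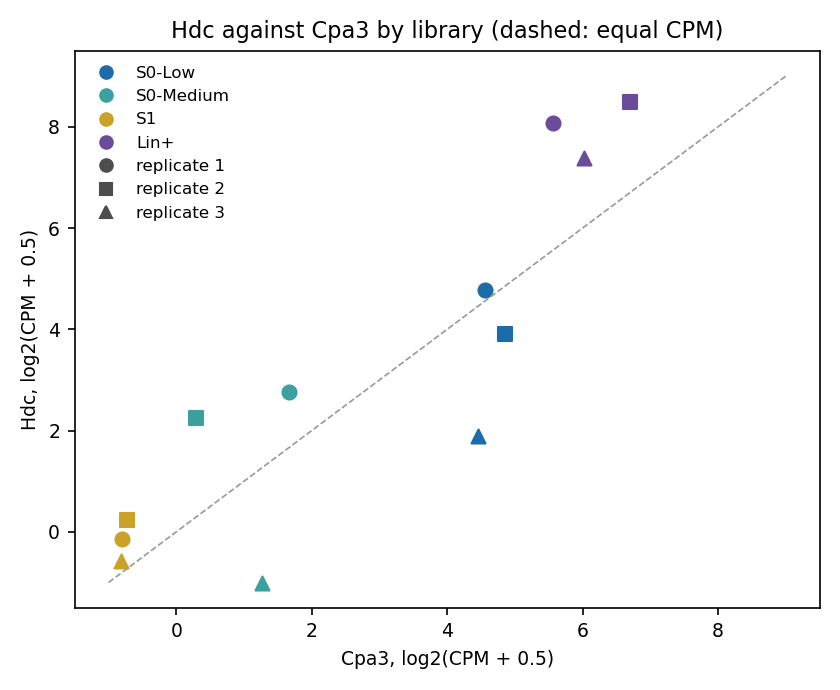
Hdc against Cpa3 in each library of 4 populations, both as log2(CPM + 0.5), with a symbol shape for each replicate number and a dashed line of equal CPM. All 3 Lin+ libraries lie above the line, with Hdc at 166 to 359 CPM, while S0-Low replicate 3, with Hdc at 3.24 and Cpa3 at 21.5 CPM, lies farthest below it among the S0-Low libraries.

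FcεRI is built from an IgE-binding alpha chain (Fcer1a), a signal-amplifying beta chain (Ms4a2) and a gamma chain shared with other Fc receptors (Fcer1g). Fcer1g, which is no member and was added after its values were seen, held 9.43, 8.87 and 21.5 CPM in S0-Low, 4.68, 1.07 and 1.67 CPM in S0-Medium, 0.229, 0.730 and 0.734 CPM in S1 and 64.0, 66.6 and 51.2 CPM in Lin+, with counts also in 2 S2 libraries and 1 S3 library. It fell in S3 against S0-Low (log2 fold change -7.26, adjusted p = 0.00684 by edgeR) and did not pass in Lin+ against S0-Low (2.19, adjusted p = 0.537 by edgeR). Ms4a2 (chromosome 19, 11615517 to 11623790) held 3.51 and 3.74 CPM in S0-Low replicates 1 and 2 and 0 in replicate 3, 0.509, 0.0466 and 0 CPM in S0-Medium, and no count in S1, S2 or S3. In Lin+ it held 34.0, 66.1 and 24.4 CPM. The Lin+ libraries all lay above S0-Low, whose own libraries ranged from 0 to 150 counts.

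The mean of Ms4a2 in Lin+ was 17.2-fold above S0-Low (log2 difference 4.08 ± 1.58), which did not pass (adjusted p = 0.381 by edgeR). Against S3 the S0-Low mean was at least 13.6-fold higher at the limit of 3 counts, with an adjusted p of 0.0468 by edgeR, a call that was lost with DESeq2 (adjusted p = 0.0562) and when any of S0-Low replicates 1 and 2 or the 3 S3 replicates was left out (adjusted p from 0.0844 to 0.102).

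Fcer1a (chromosome 1, 173221269 to 173227232) was at 0 counts in all 15 erythroid libraries, which allows at most 0.0694 to 0.249 CPM depending on the library, and held 6, 11 and 8 counts in Lin+ (0.202, 0.253 and 0.166 CPM). It did not pass the filter on low counts in either fit. Per kilobase of exon, the mean Lin+ level was 0.202 CPM for Fcer1a, 15.1 CPM for Ms4a2 and 75.8 CPM for Fcer1g.

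Of 16 genes of FcεRI signalling, 15 were in the table and 14 were tested. None passed as higher in Lin+ against S0-Low, while 0.496% of all genes did. In S1 against S0-Low 3 fell (1.95% of all genes): Plcg2, phospholipase C gamma 2 (-4.41, adjusted p = 0.00267 by edgeR), Lcp2, the adaptor SLP-76 (-5.61, adjusted p = 0.0117), and Vav1, a guanine nucleotide exchange factor (-2.99, adjusted p = 0.0356). In S3 8 of the 14 were lower, against 22.4% of all genes. The median log2 change of the list in Lin+ against S0-Low was 0.68, beside 0.02 for all genes tested. These adaptors and kinases serve many blood cells, and Inpp5d, the phosphatase SHIP1, held 260 to 415 CPM in S0-Low and 357 to 422 CPM in Lin+.

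Srgn encodes serglycin, the granule proteoglycan of many blood cells (chromosome 10, 62493833 to 62527445). It was the most abundant member per kilobase of exon in S0-Low, at a mean of 38.5 CPM, and in Lin+, at 69.7 CPM. S0-Low held 69.6, 64.1 and 120 CPM, S0-Medium 27.5, 21.4 and 54.1 CPM, and S1 8.69, 6.94 and 17.9 CPM. The 3 populations did not overlap, and replicate 3 was the highest in each.

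Srgn was still counted in every S2 library (1.74 to 8.55 CPM) and every S3 library (17.2, 4.87 and 1.15 CPM). The difference of S1 from S0-Low was -2.93 ± 0.83, with a raw p of 0.00274 and an adjusted p of 0.0705 by edgeR. With the replicate number as a block, supported here by correlations of 0.292 to 0.339 between same-numbered libraries, it passed (adjusted p = 0.0437), so that 2 members were called in this comparison and not 1. Over all genes, 534 of 16555 were lower with the block and 322 without it. In S3 against S0-Low Srgn fell by 3.46 on the log2 scale (SE 0.85, adjusted p = 0.00575 by edgeR). Lin+ held 138, 159 and 162 CPM, each above each S0-Low library, with a log2 difference of 0.85 ± 0.70 and an adjusted p of 0.868.

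Of the 12 genes for granule proteoglycan, histamine and lipid mediators, 11 were tested among the erythroid libraries and 3 fell in S1 against S0-Low (1.95% of all genes). They were Alox5ap, which presents arachidonic acid to 5-lipoxygenase (-8.78, adjusted p = 0.00969 by edgeR), Ptgs1, cyclooxygenase 1 (-7.10, adjusted p = 0.0117), and Slc18a2, the vesicular transporter that loads histamine and other amines into granules (-6.28, adjusted p = 0.0298). In S3 9 of the 11 were lower than in S0-Low (22.4% of all genes). In Lin+ against S0-Low 0 of these 11 passed (0.496% of all genes as higher). Cyp11a1, an enzyme of steroid synthesis, had 0 counts in every S0-Low library and 302, 913 and 524 in Lin+, and entered the test only through Lin+. Ndst2, which sulphates heparin and serves many tissues, held 15.8 to 39.1 CPM in S0-Low and 32.2 to 67.4 CPM in S3, with neither a call for S1 nor for Lin+ against S0-Low.

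Gzmb, granzyme B, a protease of cytotoxic lymphocytes that basophils and mast cells can also make, and Mcpt8 and Cma1 lie in 1 chymase and granzyme locus on chromosome 14. From the start of Cma1 at 55941451 to the end of Gzmb at 56262334 it spans 321 kb and holds 15 protein-coding genes. Gzmb had 1.14, 1.94 and 0 CPM in S0-Low, 0.833, 0.536 and 0 CPM in S0-Medium and at most 2 counts in any later library. In Lin+ it had 15.7, 33.1 and 1.97 CPM. Lin+ exceeded S0-Low in each library, but the lowest Lin+ library, at 1.97 CPM, lay just above the highest S0-Low library, at 1.94 CPM.

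The Gzmb difference of 4.01 ± 1.77 between Lin+ and S0-Low did not pass (adjusted p = 0.463 by edgeR), nor did S3 against S0-Low (adjusted p = 0.0514). The 8 T and natural killer cell markers summed to 5.05 to 12.2 CPM in Lin+, 0 to 3.07 CPM in S0-Low and up to 7.34 CPM in S3, and 3 to 6 of the 8 had more than 3 counts in a Lin+ library. Nkg7, a granule protein of cytotoxic cells, held 2.15, 8.36 and 4.79 CPM in Lin+ and 1.96, 1.99 and 0 CPM in S0-Low. In Lin+ replicates 1, 2 and 3 Cd3g had 1, 46 and 74 counts, Cd3d 2, 7 and 17, Klrb1c 0, 3 and 44, Cd3e 0, 0 and 4, and Ncr1 none. Neither Cd3g (log2 difference 1.70) nor Cd3d (0.59) passed in Lin+ against S0-Low, and the other 3 were too low to be tested. Gzma, granzyme A, is the remaining marker in the sum and was also too low to be tested. Prf1, the perforin of cytotoxic cells, held 1.72, 1.79 and 0.0414 CPM in Lin+ and was lowest in the replicate in which Gzmb was lowest. The part of lymphocytes in the Gzmb level was not tested. Gzmb shared 1.37% of its 31-base stretches with other genes, chiefly Gzmc, which had 5 counts at most in any library.

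Mcpt8, the basophil protease (chromosome 14, 56082163 to 56085499), had 174, 272 and 128 counts in Lin+ (5.86, 6.25 and 2.65 CPM), 5 counts in 1 S0-Low and 5 in 1 S0-Medium library, and 0 in the other 13 erythroid libraries. Its log2 difference between Lin+ and S0-Low was 6.59 ± 2.06, with a raw p of 0.00808 and an adjusted p of 0.230 by edgeR. Its mean in Lin+ was at least 27.6-fold above S3 at the limit of 3 counts. Mcpt8 passed the filter on low counts only through its Lin+ libraries, so that a difference from populations at 0 was fixed by the filter and these p-values add no support. Cma1, mast cell chymase, had 8, 38 and 5 counts in Lin+, 9 in 1 S0-Medium library and 1 in 1 S1 library, and was too low to be tested.

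Next to Mcpt8, Ctsg, cathepsin G of neutrophils and mast cells, was the highest gene of the locus per kilobase of exon in Lin+, at a mean of 92.8 CPM beside 11.9 CPM for Gzmb and 5.75 CPM for Mcpt8. Its level was 20.5, 10.2 and 11.9 CPM in S0-Low and 103, 79.1 and 97.1 CPM in Lin+, and it fell in S1 against S0-Low (-10.07, adjusted p = 0.0107 by edgeR). In 7 of the 15 genes no library had a count: the chymases Mcpt4 and Mcpt9 and the granzymes Gzmd, Gzme, Gzmf, Gzmg and Gzmn. Mcpt1, Mcpt2 and Cma2, named here after their values were seen, had at most 2 counts in any Lin+ library, while Mcpt1 had 23 counts in 1 S3 library and Mcpt2 60 in another. Only Cma1, Mcpt8, Ctsg and Gzmb had more than 3 counts in all 3 Lin+ libraries, and only Ctsg in all 3 of S0-Low.

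**Figure D3:**
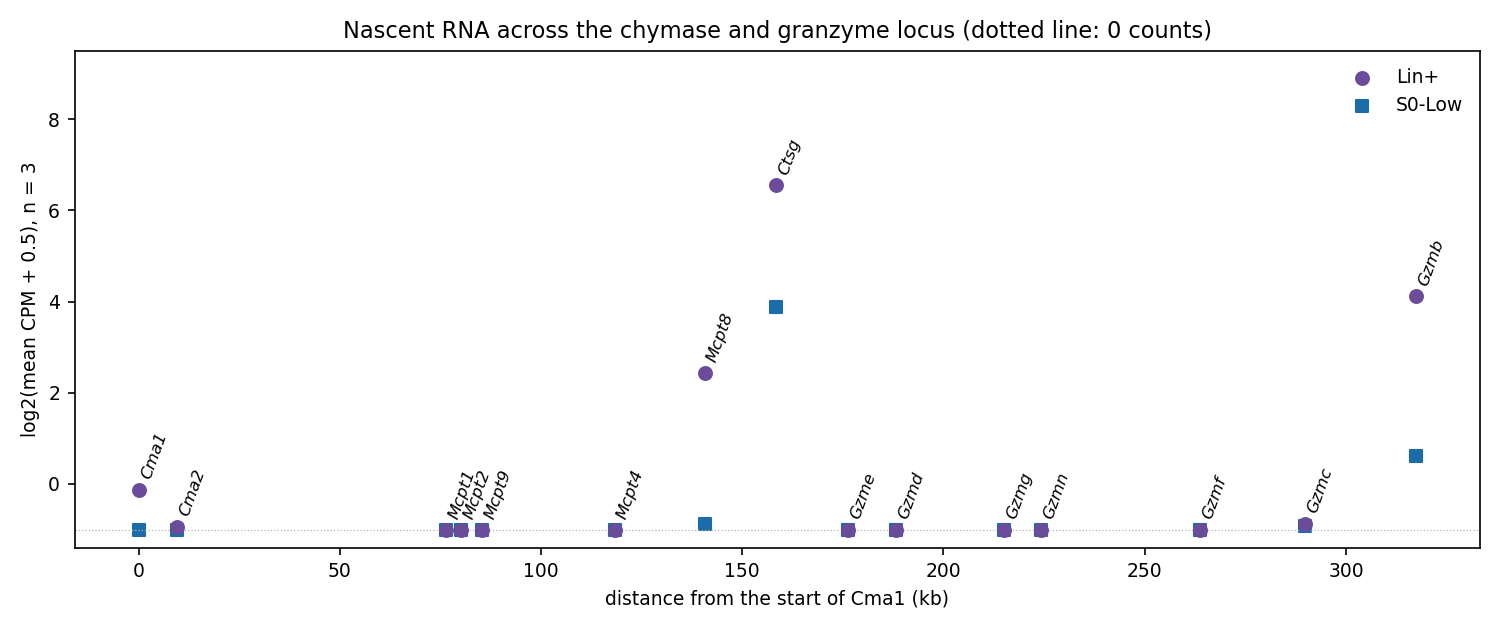
Mean nascent RNA of the 15 protein-coding genes of the chymase and granzyme locus in Lin+ (circles) and S0-Low (squares), as log2(mean CPM + 0.5) of 3 libraries, against the distance in kb from the start of Cma1. Cma1, Mcpt8, Ctsg and Gzmb stand above the line of 0 counts in Lin+, with 7 genes at 0 in all libraries lying among them and Gzmc, with 5 counts at most, close to the line.

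Prss34, a basophil tryptase-type protease (chromosome 17, 25298394 to 25300168), lies in the tryptase locus, where Prss28, Prss29 and Tpsab1 separate it from the mast cell tryptases Tpsb2 and Tpsg1. It had 32, 69 and 18 counts in Lin+ (1.08, 1.58 and 0.373 CPM) and 0 in all 15 erythroid libraries. The Lin+ mean was at least 7.56-fold above S0-Low at the limit of 3 counts per library, with a raw p of 0.00616 and an adjusted p of 0.201 by edgeR, and at least 5.68-fold above S3. Prss34, like Mcpt8, passed the filter only through Lin+, and its p-values add no support either. Tpsb2 was at 0 counts in all 18 libraries and Tpsg1 in all but 1 of S3, which had 10. Tpsab1, annotated as a transcribed pseudogene in this build, had 13 counts in 1 Lin+ library. In the same Lin+ libraries the mast cell chymase Cma1 had 5 to 38 counts, and the range of its level overlapped that of Prss34. Mrgprb2, a receptor of connective tissue mast cells, was listed at 0 in all 18 libraries. For a gene listed at 0 throughout, such as Tpsb2, Mrgprb2 or Mcpt4, a transcript missing from the counted set and a lack of RNA cannot be told apart.

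Of the 15 granule protease genes listed, 4 were tested among the erythroid libraries. Cpa3 and Ctsg fell in S1 (1.95% of all genes lower) and in S3 (22.4%) against S0-Low. Ctse, cathepsin E, went the other way and rose in S3 (2.78, adjusted p = 0.0464 by edgeR; 13.4% of all genes higher), from 7.48 to 63.8 CPM in S0-Low to 128 to 287 CPM in S3. It is a protease that red cells also make.

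Mitf, the basic helix-loop-helix factor on which mast cells depend (chromosome 6, 97807002 to 98021360), did not follow the other members. S0-Low held 30.3, 11.1 and 7.38 CPM, S0-Medium 41.6, 9.12 and 26.6 CPM, S1 23.2, 12.1 and 6.58 CPM, and S3 71.0, 8.33 and 2.47 CPM. The erythroid populations overlapped throughout, and S3 alone spanned 2.47 to 71.0 CPM. Lin+ held 57.2, 50.0 and 65.1 CPM, above every S0-Low library and inside the range of S3.

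None of the Mitf comparisons passed. S1 against S0-Low gave -0.23 ± 0.97 (adjusted p = 0.973 by edgeR), Lin+ against S0-Low 1.82 ± 0.92 (adjusted p = 0.564) and Lin+ against S3 1.08 ± 0.90 (adjusted p = 0.351). S3 against S0-Low gave 0.74 ± 0.97 (adjusted p = 0.571), and -1.60 without S3 replicate 1. Without that library, Mitf was higher in Lin+ than in S3 by 3.41 (adjusted p = 0.00588). Mitf overlaps an antisense gene, Gm15531, and a stranded kit was used, but the strand setting of the counting was not stated. Among the related factors, Tfe3 held 12.8 to 32.0 CPM in S0-Low and 39.6 to 48.0 CPM in Lin+, and Tfec, which is made in myeloid cells, 3.71 to 18.2 CPM and 42.5 to 82.9 CPM. None of the 4 genes of this family passed in S1 or in Lin+ against S0-Low, and Tfec fell in S3 (-11.28, adjusted p = 0.00457 by edgeR).

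Of 10 transcription factors of the mast cell and basophil programme tested, 2 fell in S1 against S0-Low (1.95% of all genes): Cebpa, a granulocyte factor (-8.00, adjusted p = 0.0112 by edgeR), and Runx2 (-7.65, adjusted p = 0.0133). Gata2 held 252, 293 and 168 CPM in S0-Low, 174, 117 and 81.4 CPM in S0-Medium and 13.1, 16.9 and 8.48 CPM in S1, with no overlap between S1 and S0-Low and an adjusted p of 0.0654. Gata1 held 85.1 to 218 CPM in S0-Low and rose in S3 (1.80, adjusted p = 0.00392 by edgeR), the only 1 of the 10 called higher there (13.4% of all genes). In S3 7 of the 10 were lower than in S0-Low (22.4% of all genes), with a median log2 change over the list of -2.35 beside -0.54 for all genes. Zfpm1, the cofactor FOG1, was listed at 0 in all 18 libraries, where a transcript missing from the counted set cannot be told apart from a lack of RNA. In Lin+ against S0-Low 0 of 10 passed.

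The surface receptor Kit, which binds stem cell factor and serves progenitors and mast cells alike, held 321 to 729 CPM in S0-Low, 160 to 251 CPM in S1 and 208 to 449 CPM in Lin+. Of 13 receptor genes tested, 2 fell in S1 against S0-Low (1.95% of all genes), Itga2, an integrin chain (-8.57, adjusted p = 0.0381 by edgeR), and Csf2rb, the common beta chain of the interleukin-3 and interleukin-5 receptors (-4.03, adjusted p = 0.0442). In S3 8 of the 13 were lower than in S0-Low (22.4% of all genes), among them Kit (-9.02, adjusted p = 0.000101). Of 14 tested in Lin+ against S0-Low, 0 passed (0.496% of all genes as higher). Enpp3, a receptor of this list named after its values were seen, went the other way in S3 without passing (4.78, adjusted p = 0.0518 by edgeR). In Lin+ against S0-Low Enpp3 gave -4.69 (adjusted p = 0.395). In Lin+ against S3 it was the only 1 of the 14 called lower (-9.48, adjusted p = 0.00331; 2496 of 17755 genes), while 10 were higher (28.2% of all genes). Csf2rb held 94.5 to 130 CPM in S0-Low and 474 to 762 CPM in Lin+ (log2 difference 2.41, adjusted p = 0.285).

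Over the members as a whole, 6 of 10 (Cpa3, Ms4a2, Gzmb, Srgn, Hdc and Mitf) passed the filter on low counts among the 15 erythroid libraries, and Mcpt8 and Prss34 joined them only through Lin+ when all 18 entered the fit, so that both had to differ there. In S0-Medium against S0-Low 0 of 6 members and 0% of all genes passed by edgeR. There 1 member (Cpa3) had a raw p under 0.05 in the lower direction (1.47% of all genes). DESeq2 called 1 (0.193% of all genes in either direction). Cpa3 and Srgn were lower without overlap, as were 6.64% of all genes. S1 against S0-Medium gave 0 of 6 members and 0% of genes by edgeR, with 1 raw p under 0.05 in the lower direction (5.18% of all genes). DESeq2 made 1 call (1.44% of all genes in either direction), and Cpa3 and Srgn again did not overlap (10.2% of all genes lower). In S1 against S0-Low 5 of 6 members had a raw p under 0.05 in the lower direction, against 9.98% of all genes, and 3 (Cpa3, Srgn and Hdc) did not overlap, against 14.5%.

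In S3 against S0-Low 4 of the 6 fell, Cpa3, Hdc, Srgn and Ms4a2, where 22.4% of all genes were called lower. The median log2 change over all genes tested was -0.54 in this comparison, and -1.36 when libraries were scaled by their totals, so changes are relative to that shift. In Lin+ against S0-Low 0 of the 8 members tested passed by edgeR (0.496% of all genes as higher), and DESeq2 called 1, Hdc (2.22% of all genes in either direction). Of the 6 members that passed the filter without Lin+, 4 had a raw p under 0.05 in the higher direction (6.89% of all genes), and all 6 were higher in each Lin+ library than in each S0-Low library, as were 15.7% of the genes tested. In Lin+ against S3 5 of these 6 passed as higher, all but Mitf, where 28.2% of all genes did and the median over all genes was 0.69.

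**Figure D4:**
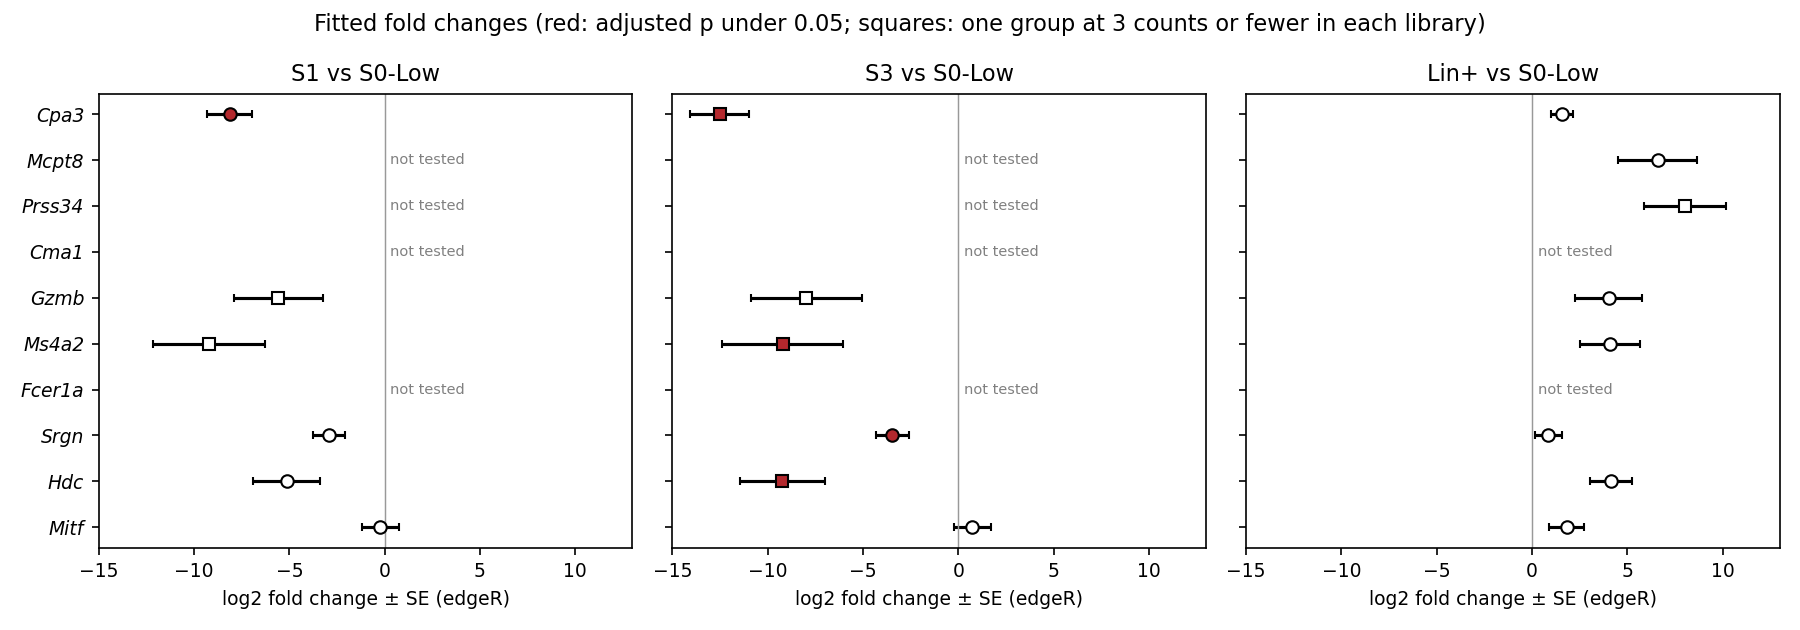
Log2 fold changes with their standard errors by edgeR for the tested members in 3 comparisons, filled red where the adjusted p was under 0.05, with squares where 1 group had 3 counts or fewer in each library and the size depends on the fit's prior. In S1 against S0-Low only Cpa3 is filled, in S3 against S0-Low Cpa3, Ms4a2, Srgn and Hdc are, and in Lin+ against S0-Low all 8 lie right of 0 with none filled, Mcpt8 and Prss34 having entered only through Lin+.

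Members parted company in replicate 3 of the early populations. In S0-Low replicate 3 Ms4a2 and Gzmb had 0 counts, where the mean level of replicates 1 and 2 would have given 43.7 and 18.6 counts at its depth, and Hdc had 39 where it would have given 249. Mitf had 89 where it would have given 249. Cpa3 had 259 where it would have given 311, and Srgn had 1449 where it would have given 806. In S0-Medium replicate 3 Hdc had 0 counts where 180 would have been given, and Gzmb 0 where 23.3, while Cpa3 had 65 where 58.1. Mitf had 907 there where 865 would have been given, and Srgn 1843 where 833. What differed in these libraries was not tested. Without the libraries numbered 3, a choice made after seeing these values, S1 against S0-Low called 3 members (Cpa3, Srgn and Hdc; 326 of 17255 genes lower). Lin+ against S0-Low then called Hdc (3.93, adjusted p = 0.00597 by edgeR; 126 of 18232 genes higher).

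Markers of other blood cells were summed in the same libraries. Neutrophil markers summed to 340 to 797 CPM in S0-Low, 11.5 to 175 CPM in S0-Medium, 0.901 to 1.80 CPM in S1 and 3396 to 6040 CPM in Lin+, where all 9 genes had more than 3 counts. Eosinophil markers summed to 12.9 to 43.0 CPM in S0-Low and 310 to 476 CPM in Lin+, and monocyte and macrophage markers to 47.2 to 110 CPM and 863 to 1061 CPM. Megakaryocyte markers summed to 83.0 to 174 CPM in S0-Low, 99.9 to 190 CPM in S0-Medium and 373 to 1092 CPM in Lin+, and B cell markers to 4.56 to 11.6 CPM and 14.7 to 20.7 CPM. S100a9, of mature neutrophils, held 0.129 to 0.324 CPM in S0-Low and 423 to 563 CPM in Lin+. In Lin+ against S0-Low 5 of 9 neutrophil and 4 of 6 eosinophil markers passed as higher (0.496% of all genes), but the 5 and 2 of the 4 passed the filter only through Lin+. Of the monocyte and macrophage markers 1 of 6 passed, and of the megakaryocyte markers 0 of 7. Mpo, made by early granulocyte progenitors, held 326 to 739 CPM in S0-Low. Ctsg stands in the neutrophil list too. The part of each cell type in the levels of Srgn, Hdc, Gzmb and Ctsg was not tested. Of the antigens of the lineage panel, Itgam, which encodes CD11b, was listed at 0 in all 18 libraries, with the same limit as for Zfpm1.

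Stem and progenitor markers summed to 858 to 1170 CPM in S0-Low, 169 to 267 CPM in S1 and 698 to 1169 CPM in Lin+, and 0 of 6 passed in Lin+ against S0-Low. In S1 against S0-Low 4 of 6 fell (1.95% of all genes), among them Cd34 (-9.44, adjusted p = 0.00111 by edgeR), beside -8.14 for Cpa3. The list shares Kit and Gata2 with those of the receptors and factors above.

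As a description of likeness over the 18 libraries, the genes whose log2(CPM + 0.5) correlated best with each member were listed for the 6 members with a mean of at least 1 CPM. For Cpa3 they were Rgs1, Cd69 and Tyrobp (Pearson r 0.99 for each), genes of immune cell signalling. For Hdc they were Dbc1, Ceacam1 and Gas7 (r 0.98 to 0.99), and for Ms4a2 an unnamed gene, Chdh and Trem1 (r 0.99 to 1.00). Gzmb had Cpne2, Lamb1 and Gm15581 (r 0.95 to 0.96), Srgn had Inpp4a, Sp110 and Sh3bgrl3 (r 0.95 to 0.97), and Mitf had weaker neighbours, Oma1, Hmox2 and Msra (r 0.84 to 0.85). The libraries are shared by all genes, r also carries the differences between the 6 populations, and no p is given. No member was among the 3 nearest genes of another. Between members, Hdc and Ms4a2 had r of 0.95, Cpa3 and Hdc 0.92, Cpa3 and Srgn 0.90, and Cpa3 and Mitf 0.48.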

How the data were processed

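The 18 libraries hold RNA labelled with 4sU and were grouped by the population and replicate named in the labels. The authors sequenced libraries from a stranded total RNA kit, without molecular identifiers, and deposited whole-number counts per gene made with Kallisto 0.43.0, with GRCm38 named in the submitters' processing notes. The transcript set, the treatment of introns and the strand setting are not given in the sources used here. The values are not normalized. Of 54232 gene identifiers, 32651 had a symbol. Syk was not analysed here.

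Counts were fitted with edgeR 4.0.16 in R 4.3.3 (TMM scaling, filterByExpr, two-sided quasi-likelihood test, Benjamini-Hochberg adjustment, adjusted p under 0.05), with population as the only factor: 15 erythroid libraries (16555 genes, biological coefficient of variation 0.795) or all 18 for comparisons with Lin+ (17755 genes, 0.771). The fits were tested on simulated data. CPM use the TMM factors of all 18 libraries. A fold against a group at 0 was taken against 3 counts per library, which, like the depth of 9452476 to 40567976 counts, covers counting error only. Levels per kilobase used exon lengths from GENCODE annotation, and positions and promoters came from RefSeq GRCm38.p6, searched with Python 3.11.15 and pandas 2.3.3.

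The members and gene lists were chosen with earlier results of these data known. The text names the 10 members, the genes of each list with the highest mean CPM (at most 4) or smallest adjusted p among those that passed (at most 4), genes of the 2 protease loci that hold members and the 3 genes most like each member. Genes listed at 0, Fcer1g, Enpp3 and the T and natural killer cell markers Cd3g, Cd3d, Klrb1c, Cd3e, Ncr1 and Gzma were named after their values were seen. Samples with the same replicate number deviated together in the comparisons of S0-Low, S0-Medium and S1 with each other and of Lin+ with S0-Low (every correlation of deviations over 0.1, lowest 0.192), a pairing taken from the numbers and the data alone. No 2 replicates agreed within sampling noise. The alternatives were other scalings, DESeq2 1.42.0, other filters, the replicate block, other sets of libraries and each replicate left out.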

Additional observations from a re-analysis of the deposited data

How the results depend on the processing

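Member counts per comparison moved with the processing in places. In S0-Medium against S0-Low DESeq2 called 1 member where edgeR called 0 (0.193% and 0% of all genes in either direction). In S1 against S0-Medium DESeq2 and a fit of all 18 libraries each called 1 (1.44% and 0.704% of all genes, where edgeR called 0%). In S1 against S0-Low edgeR called 1 member, DESeq2 3, no filter 4, only the 6 libraries compared 3, all 18 libraries 4, the replicate block 2, and no libraries numbered 3 (chosen after seeing the data) 3. Over all genes, the number called lower was 322 of 16555 with edgeR, and in the same order 1323 of 28432, 791 of 28888, 1020 of 14770, 707 of 17755, 534 of 16555 and 326 of 17255. A minimum of 10 counts per library of the comparison gave 0 (2.6% of all genes in either direction), since only 2 members were then tested. That filter likewise left 1 called of 2 tested in S3 against S0-Low (38.5% of all genes) and 1 of 2 in Lin+ against S3 (42%). In Lin+ against S0-Low 1 member, Hdc, was called by DESeq2, without a filter, with the replicate block, from the 6 libraries compared and without libraries numbered 3, and 0 otherwise. The share of all genes called in either direction was 0.715% in the main fit. In the same order it was 2.22%, 1.3%, 1.93%, 3.6% and 1.09% in these settings. Leaving out each replicate in turn gave 0 called in S0-Medium against S0-Low and in S1 against S0-Medium (0% of all genes). It gave 1 in S1 against S0-Low (0.676 to 1.7% of all genes in either direction) and 0 in Lin+ against S0-Low (0.226 to 0.367%). In S3 against S0-Low it gave 3 to 5 (24.6 to 32.7%). In Lin+ against S3, where Mcpt8 and Prss34 entered only through Lin+, it gave 6 to 7 of 8 (31.3 to 37.7%). Mitf changed sign in S1 against S0-Low without S0-Low replicate 1 (0.50) and without S1 replicate 3 (0.12), from -0.23 and over a range of -0.88 to 0.50 with each replicate left out, and in S3 against S0-Low without S3 replicate 1 (-1.60), from 0.74 and over a range of -1.60 to 1.47, and the cause was not tested. Of the member log2 fold changes under an alternative, 548 kept direction and side of the threshold, 30 gained and 12 lost the call, and 3 changed sign. For S3 against S0-Low and Lin+ against S3 the numbers did not pair the libraries by the rule used (lowest correlations 0.0806 and 0.0905). There the replicate block added Gzmb (-7.77, adjusted p = 0.0450 by edgeR) and Mitf (1.98, adjusted p = 0.0423). The log2 ratio of Hdc to Cpa3 differed by 2.28 to 3.75 between Lin+ and S0-Low with each replicate left out, with an exact sign-flip p of 0.25 over pairs. The genes nearest to Cpa3, Gzmb, Mitf and Hdc changed with the pseudocount or the scaling, so those lists are not firm. Depth limits what can be said of Fcer1a, Cma1 and Prss34, whose counts in Lin+ were 5 to 69.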

Other observations

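Cytokine and chemokine genes that mast cells and basophils share with other myeloid cells were also read in these libraries. Of 8 listed, 6 were tested among the erythroid libraries and 1 fell in S1 against S0-Low: Ccl3, a chemokine that draws in leukocytes (-9.12, adjusted p = 0.0298 by edgeR), where 1.95% of all genes were called lower. In S3 4 of 6 were lower than in S0-Low (22.4% of all genes). Csf1, the macrophage growth factor, held 1.92 to 18.8 CPM in S0-Low and 36.1 to 92.2 CPM in Lin+, and Ccl3 3.54 to 28.1 CPM and 17.4 to 63.3 CPM. Il4, the cytokine for which basophils are known, held 0.723, 3.79 and 1.74 CPM in S0-Low, 1.40, 1.77 and 2.50 CPM in S1 and 3.20, 16.4 and 14.7 CPM in Lin+, so that only S0-Low replicate 2 reached into the Lin+ range. None of the 7 tested passed in Lin+ against S0-Low (0.496% of all genes as higher). Ccl2 entered the test only through Lin+, so the median of the list is not set beside that of all genes.

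Alox5, the 5-lipoxygenase of leukotriene synthesis, had 52.0 and 43.2 CPM in S0-Low replicates 1 and 2 and 0.249 CPM, or 3 counts, in replicate 3. Tnf likewise had 6.61 and 7.18 CPM and then 0. Cd200r3, a basophil and mast cell surface receptor singled out after its values were seen, went the other way, with 36 and 33 counts in S0-Low replicates 1 and 2 and 438 in replicate 3.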
